A study of Mus musculus with 48 samples.

Results

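The libraries described here mapped joining from the JH segments of Igh, the mouse heavy chain locus of the antibody genes, in bone marrow (BM) pro-B cells with an inverted or a normal Igh. They were the full junction lists of replicates 1 to 4 with an inverted Igh (INV BM) and of wild-type replicates 1 to 3 (WT BM), chosen by their labels, so 7 of the 48 samples of the series. The assay, LAM-HTGTS, extends a primer on a bait segment by linear amplification and reads across each joint into the DNA joined to it, the prey. Each list holds 1 junction per line. The 7 lists held 3847690 junctions, of which 2444217 lay in the D or VH regions, and these D plus VH junctions are the denominator below unless another is named. The series' design asks how RAG scanning in a fixed orientation and contraction of the locus serve recombination over long distances.

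Both groups carry the C57BL/6 background and a label of RAG1 deficiency, and INV BM adds the Igh inversion. The labels name no step that restores RAG1, although the lists hold V(D)J joints. They do not give the ends of the inversion and do not say whether replicates came from separate animals, so the spread between replicates may be technical. Pro-B cells were taken on B220 beads and grown for 4 to 5 days in IL-7 (10 ng/mL), with SCF at 2 ng/mL. STI-571, which inhibits the Abl kinase, is also listed on these samples, at 3 uM for 4 days.

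A heavy chain variable exon is assembled by the RAG recombinase, which first joins a D segment to a JH segment and then a VH segment to the DJH joint. RAG cuts at recombination signal sequences (RSSs), each a heptamer and a nonamer held apart by a short or a long spacer, and joins a short-spacer RSS to a long-spacer one. From its centre at the JH segments, RAG is known to scan chromatin that cohesin extrudes past it, and scanning uses RSSs that face the centre. Ighv5-2 (also known as VH81X) is the VH gene near the D side that pro-B cells are known to use most among the proximal genes.

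On chromosome 12 of mm9 the JH, D and VH segments lie in this order from low to high coordinates and all are encoded on the minus strand. A joint to the coding end of a normally annotated VH or D segment is therefore listed as a plus-strand prey, and stays so when the DNA itself is inverted, because the read is aligned to the reference. A minus-strand prey is either a joint to a coding end whose RSS faces the opposite way in the reference, or a joint to the RSS end of a normally annotated segment. The sequences below were read from mm9 at the sites on which the results turn, from the coding end into the RSS. Capitals mark the heptamer and, in annotated segments and the intergenic site, the nonamer. The heptamer was taken as the 7 bases starting with CAC that best match CACAGTG. It could start from 3 bases before the most used junction to 15 bases past it.

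Ighd1-1: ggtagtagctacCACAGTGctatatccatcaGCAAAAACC
Ighd4-1: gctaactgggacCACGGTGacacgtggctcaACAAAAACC
Intergenic site 114811138: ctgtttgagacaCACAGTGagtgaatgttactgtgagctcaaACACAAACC
Ighv5-2: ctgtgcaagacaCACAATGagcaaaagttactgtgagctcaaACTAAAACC
Ighv2-2: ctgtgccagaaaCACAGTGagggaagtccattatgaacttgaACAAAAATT
Ighv5-4: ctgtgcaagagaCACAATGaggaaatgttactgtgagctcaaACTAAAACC
Ighv1-81: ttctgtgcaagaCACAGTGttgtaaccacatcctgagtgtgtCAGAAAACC
Minus-strand site 114835527: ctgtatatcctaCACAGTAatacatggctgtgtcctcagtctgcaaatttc
Minus-strand site 116843830: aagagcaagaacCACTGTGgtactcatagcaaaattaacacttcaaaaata
Minus-strand site 117150322: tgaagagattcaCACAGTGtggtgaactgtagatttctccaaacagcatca
Minus-strand site 117193794: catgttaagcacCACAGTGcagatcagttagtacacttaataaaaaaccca
Site 118596803 beyond VH: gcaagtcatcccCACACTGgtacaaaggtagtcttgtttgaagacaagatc

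The sequences shown, which include the RSS, span chr12:114720353-114720392 (Ighd1-1) and chr12:114668711-114668750 (Ighd4-1), with a spacer of 12 bases; the annotated segments are chr12:114720381-114720403 and chr12:114668739-114668749. Those of the intergenic site (chr12:114811099-114811149), Ighv5-2 (chr12:114816676-114816726), Ighv2-2 (chr12:114826439-114826489), Ighv5-4 (chr12:114835618-114835668) and Ighv1-81 (chr12:117158451-117158501) are marked with a spacer of 23 bases. Spacers of 12 or 23 bases and 1 base either side were tried, and the best nonamer match was kept. In Ighv1-81 a spacer of 22 bases matches as well as 23, so its marked nonamer is not the only reading. All of these, and the site beyond VH (chr12:118596764-118596814), are the reverse complement of the reference. The minus-strand sites are the reference strand itself, at chr12:114835516-114835566, chr12:116843819-116843869, chr12:117150311-117150361 and chr12:117193790-117193840. Ighv5-2 and Ighv5-4 hold the same heptamer and the same nonamer, and their shares of D plus VH junctions moved in opposite directions in INV BM.

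Depth differed between libraries. INV BM lists held 280184 to 785235 junctions and 268652 to 703241 D plus VH junctions, and WT BM lists 401241 to 1016401 and 120067 to 378840. WT BM replicates 2 and 3 stood apart, with 64.8% and 87.4% of their lines in the JH region against at most 9.55% in the other libraries, which is why the denominator leaves JH junctions out. INV BM replicate 1 and WT BM replicate 1 came from 1 sequencing run (run 1 here) and the other 5 libraries from another (run 2). Distinct combinations of position, strand and bait end made up 2.18% to 8.30% of the D plus VH junctions, so most lines share these ends with another line of the same library. Adding insert length raised the distinct count, from 15336 to 40360 in INV BM replicate 1 and from 9963 to 14067 in WT BM replicate 3. Insert sequences were not compared for this count, so separate joints with the same ends and copies of 1 joint are not told apart. Counting intervals and limits below cover counting error only.

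As a share of D plus VH junctions, joining to the VH region was lower in every INV BM library than in any WT BM library. On all junctions, which in WT BM replicates 2 and 3 are mostly JH junctions, the groups overlapped (8.40% to 11.7% in INV BM, 6.04% to 45.5% in WT BM). VH junctions were 13.1%, 9.09%, 9.02% and 9.001% of D plus VH junctions in INV BM replicates 1 to 4 and 48.2%, 50.4% and 51.1% in WT BM replicates 1 to 3. The means were 10.1% ± 2.02 (SD, n = 4) and 49.9% ± 1.51 (SD, n = 3), a ratio of 4.97 (two-sided exact permutation test, p = 0.0571, adjusted p = 0.0779 over 15 shares). With 4 libraries against 3 the exact test cannot go below 0.0571, so no share in this comparison could pass 0.05, and 11 of the 15 reached that smallest value. Within run 1, which holds 1 library of each group, the VH share was 13.1% against 48.2%, and within run 2 it averaged 9.04% and 50.8%. The size of the difference depended on how lines with the same ends were counted. With distinct combinations of position, strand, bait end and insert length, a count added after seeing the data, the VH share averaged 16.5% against 61.0%. With each distinct combination of position, strand and bait end counted once the VH share averaged 18.95% against 65.4%, and with each position and strand counted once, a count added after seeing the data, 47.4% against 73.3%.

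As a share of D plus VH junctions, Ighv5-2 went the other way from the other VH genes. It took 11.2%, 7.55%, 7.53% and 7.54% of D plus VH junctions in INV BM and 2.82%, 3.58% and 4.81% in WT BM, on both strands. The groups did not overlap, and the means were 8.45% ± 1.82 (n = 4) and 3.73% ± 1.003 (n = 3) (exact permutation p = 0.0571, adjusted p = 0.0779). Within run 1 the values were 11.2% and 2.82%, and within run 2 they averaged 7.54% and 4.19%. Per D junction the groups overlapped. INV BM replicates 1 to 4 had 78562, 23706, 20218 and 37237 Ighv5-2 junctions beside 611219, 285254, 244415 and 449305 D junctions. WT BM replicates 1 to 3 had 10686, 5931 and 5773 beside 196098, 82234 and 58673. Within run 2 the INV BM libraries then lay between WT BM replicates 2 and 3. In run 1, with 1 library of each group, INV BM was higher per D junction. The D plus VH denominator also holds the other VH junctions, so a rise on it can follow from their fall alone.

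All other VH junctions together took 1.91%, 1.54%, 1.496% and 1.46% of D plus VH junctions in INV BM and 45.4%, 46.9% and 46.3% in WT BM. Their mean was 1.60% ± 0.211 (n = 4) against 46.2% ± 0.726 (n = 3), 28.8 times lower (exact permutation p = 0.0571, adjusted p = 0.0779). Within run 1 they were 1.91% and 45.4%, and within run 2 they averaged 1.498% and 46.6%. The fold shrank when lines with the same position, strand and bait end were counted once, with means of 12.7% against 63.1%. It shrank less with insert lengths added (5.49% against 57.8%) and more with distinct positions and strands (44.4% against 71.9%). Lines with the same ends differed in insert length, so these counts can also merge separate joints.

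**Figure D1:**
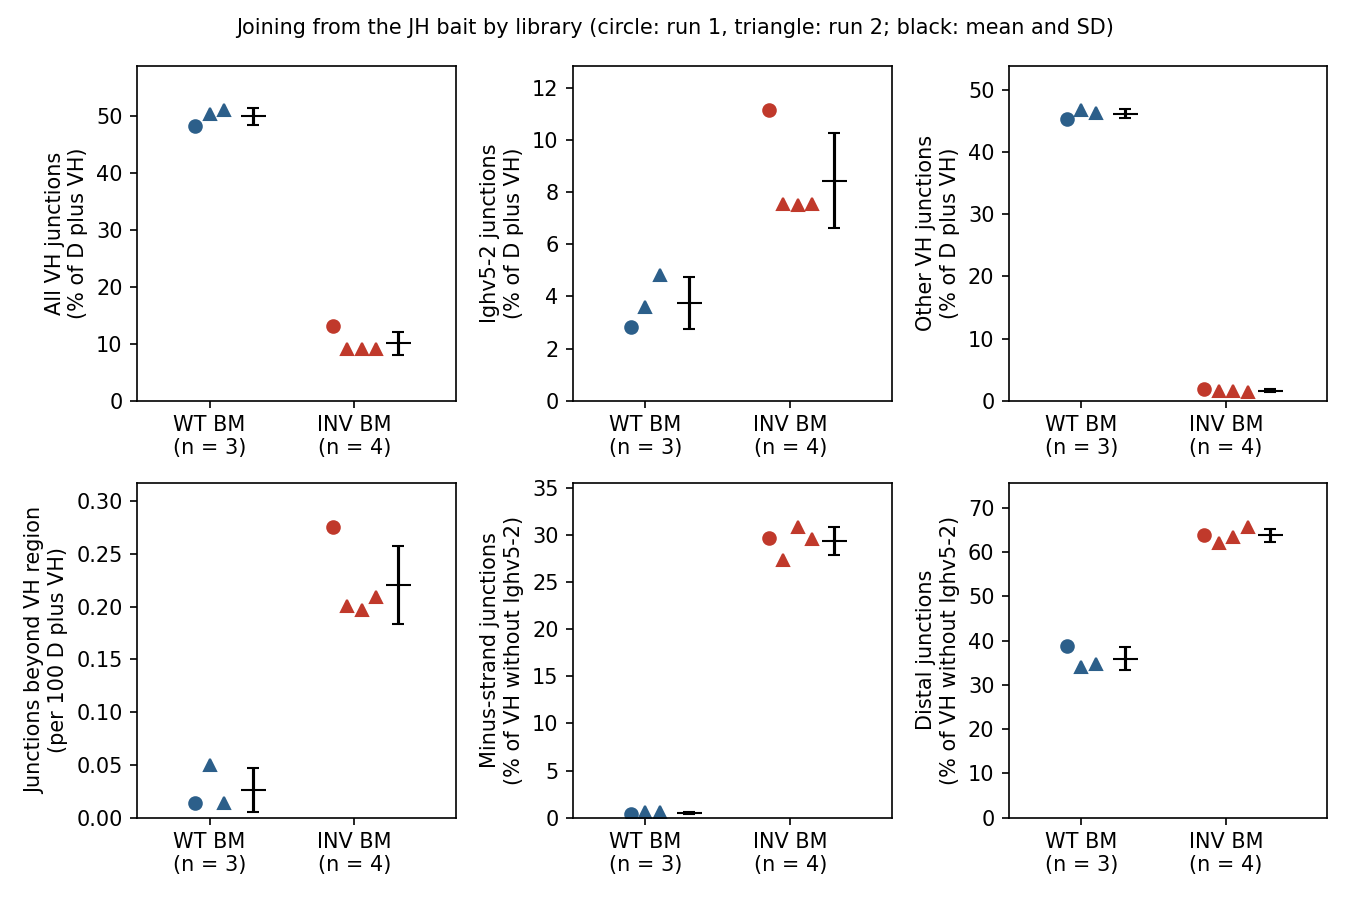
Each panel plots 1 share by library, with its denominator on the vertical axis; circles are libraries of run 1, triangles of run 2, and black bars the mean and SD of 4 INV BM or 3 WT BM libraries. The groups do not overlap in any panel, and INV BM replicate 1, at 11.2%, lies above the other INV BM libraries for Ighv5-2.

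Junctions were grouped into sites by strand: annotated segments, and clusters of positions over gaps of at most 20 bases elsewhere in the D, intergenic and VH regions. Of 931 sites, 492 had at least 10 junctions and were tested with limma voom. At a Benjamini-Hochberg adjusted p below 0.05, 207 sites (42.1%) were called, 35 (7.11%) higher and 172 (34.96%) lower in INV BM. The split moved with the scaling: on all junctions 73 were higher and 130 lower, on D junctions 14 and 220, and on VH junctions 176 and 127. The median log2 fold change over all sites was −1.003 on D plus VH junctions and 0.70, −1.83 and 1.31 on the other scalings.

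Of the plus-strand sites of annotated VH genes, 99 of 102 tested fell, 1 rose, and 2 were not called. The gene that rose, as a share of D plus VH junctions, was Ighv5-2. Those not called were Ighv1-18, with 0 junctions in INV BM and 10 in WT BM, and Ighv1-2, with 6 and 16, named after their values were seen. The 102 were those of 105 genes with a junction that reached 10 junctions, out of 112 annotated VH genes. Of these, 17 reached 10 junctions in WT BM only, and of the other 85, with at least 10 in each group, 84 fell. The median log2 fold change of the 102 was −6.18. In 98 of them the libraries of the groups did not overlap, against 40.9% of all tested sites.

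Ighv5-2 (chr12:114816715-114817201, joined at the end of its coding exon) took 11.1%, 7.53%, 7.497% and 7.51% of D plus VH junctions on the plus strand in INV BM and 2.80%, 3.53% and 4.80% in WT BM. On that denominator it rose by 1.51 on the log2 scale (SE 0.22, limma adjusted p = 2.8e-06), and its lowest INV BM library lay above its highest WT BM library. Farther from D, the next gene with junctions was Ighv2-2 (chr12:114826478-114826911), 9.76 kb on. Ighv2-2 was the most used VH gene after Ighv5-2 in WT BM, with 1.73%, 2.14% and 2.03% of D plus VH junctions, and had 13, 17, 26 and 22 junctions in INV BM. It fell from 1.96% ± 0.210 (n = 3) to 0.00535% ± 0.00326 (n = 4) (log2 fold change −8.82, SE 0.59, limma adjusted p = 1.1e-11).

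Ighv5-4 (chr12:114835657-114836116), a further 9.18 kb on, had 0.00697%, 0.00351%, 0.00707% and 0.00648% in INV BM and 1.01%, 1.26% and 1.26% in WT BM. It fell by 7.53 on the log2 scale (SE 0.53, limma adjusted p = 2.4e-11). Ighv2-1, annotated nearer to D than Ighv5-2, had 3 junctions in INV BM replicate 1 and 0 in the other libraries, and was not tested.

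The most used genes of WT BM that lie farther out were Ighv1-81 and Ighv1-26. Ighv1-26 (chr12:116026583-116027016) had 1.16%, 1.17% and 1.09% in WT BM and 0.0105% to 0.0182% in INV BM, and fell by 6.20 on the log2 scale (SE 0.38, limma adjusted p = 3.4e-12). Ighv1-81 (chr12:117158490-117158923) had 1.017%, 1.17% and 1.83% in WT BM and 0.126%, 0.125%, 0.121% and 0.139% in INV BM. It fell by 3.21 on the log2 scale (SE 0.23, limma adjusted p = 3.0e-11), and was the most used VH gene of INV BM after Ighv5-2. The next in INV BM were Ighv1-72 at 0.0595% ± 0.00802, Ighv8-12 at 0.0426% ± 0.0117 and Ighv1-82 at 0.0392% ± 0.0153 (n = 4). All of these also fell, with log2 fold changes of −3.46, −3.45 and −4.197 (limma adjusted p = 4.1e-11, 7.3e-10 and 1.9e-10). The join of Ighv8-12 lay 14 bases outside the annotated gene.

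The greatest falls were in genes away from both ends of the VH region. Ighv1-58 had 1191, 349 and 213 junctions in WT BM and 1 in INV BM, in replicate 1 (log2 fold change −10.58). Ighv1-49 had 1344, 784 and 438 in WT BM and 14 in INV BM, of which 13 were in replicate 3 (log2 fold change −10.28). Ighv9-4 had 2561 junctions in WT BM and 16 in INV BM, and Ighv9-1 had 1204 and 2, with log2 fold changes of −9.69 and −9.65. These 4 genes were chosen as the greatest falls, and Ighv1-58 and Ighv9-1 reached 10 junctions through WT BM alone, so no test is given for them. With counts this low in INV BM, the fitted values depend on the added count of 0.5 and order these genes poorly.

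By family, taken from gene names, 13 of 14 families with a tested gene held no member that rose, and Ighv5 held Ighv5-2 alone. In Ighv1, the largest family, 52 of 54 tested genes fell, against 34.96% of all tested sites, and its summed share was 0.580% ± 0.0669 (n = 4) against 17.2% ± 1.49 (n = 3) in WT BM. In Ighv5 without Ighv5-2, 8 of 8 tested genes fell and the sum was 0.0570% ± 0.01002 against 4.15% ± 0.309. In Ighv2, 9 of 9 fell, with 0.0922% ± 0.01099 against 4.96% ± 0.732. Ighv9 had the lowest median log2 fold change, −9.43 over 4 genes, and the summed share was 0.00481% ± 0.00212 against 1.57% ± 0.130. Across families the median ran from −9.43 to −4.30, where the median over all tested sites was −1.003.

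The parts of the VH region farthest from D had the smallest differences, an order that was not tested. With the VH region cut into 8 equal parts from the D side and Ighv5-2 left out, plus-strand joining in parts 1 to 6 was 44.4 to 67.4 times lower in INV BM than in WT BM. In part 7 it was 28.7 times lower, 0.124% ± 0.0292 (n = 4) against 3.56% ± 0.2997 (n = 3), and in part 8 it was 14.4 times lower, 0.388% ± 0.0349 against 5.59% ± 0.164. The groups did not overlap in any part. Among the tested genes the median log2 fold change was −6.53 in part 1 (Ighv5-2 included), −7.13 in part 3, −5.47 in part 7 and −4.197 in part 8.

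At the far end, Ighv1-83 fell from 0.0781% ± 0.0202 (n = 3) to 0.00993% ± 0.00395 (n = 4), by 2.95 on the log2 scale (SE 0.54, limma adjusted p = 4.8e-05). Ighv1-84 had 0.0478%, 0.0249%, 0.0246% and 0.0267% in INV BM and 0.0702%, 0.107% and 0.102% in WT BM. It fell by 1.40 (SE 0.41, limma adjusted p = 0.0075), the smallest fall among the annotated VH genes called on the plus strand. Ighv1-85, the last annotated gene, fell by 2.47 (SE 0.43, limma adjusted p = 2.6e-05). Relative to VH junctions as the library size, Ighv1-84 had a log2 fold change of 0.86, and Ighv1-83 (adjusted p = 0.213) and Ighv1-85 (adjusted p = 0.769) were not called by limma.

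The distal share, the percent of VH junctions without Ighv5-2 that lie past the midpoint of the region, was 63.8%, 62.2%, 63.4% and 65.8% in INV BM and 38.8%, 33.95% and 34.8% in WT BM. The groups did not overlap (63.8% ± 1.496, n = 4, against 35.9% ± 2.60, n = 3, exact permutation p = 0.0571). Within run 1 it was 63.8% against 38.8% and within run 2 it averaged 63.8% against 34.4%. With each distinct position and strand counted once it averaged 55.4% and 42.4%.

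**Figure D2:**
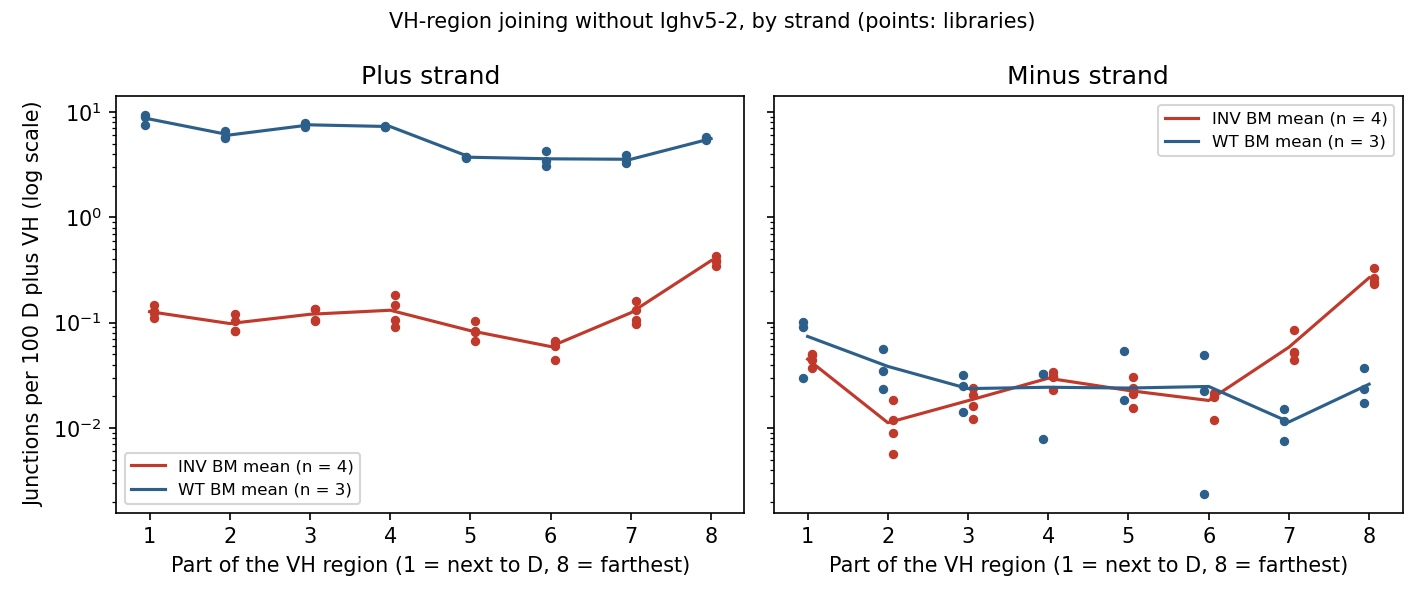
Junctions per 100 D plus VH junctions, on a log axis, in 8 equal parts of the VH region without Ighv5-2, for the plus strand (left) and the minus strand (right); points are libraries and lines group means, and libraries without a junction in a part have no point. On the plus strand INV BM lies below WT BM in every part, and on the minus strand it lies above WT BM in parts 7 and 8.

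Minus-strand junctions made up a larger share of VH-region joining in INV BM. Over all VH junctions, most of which were Ighv5-2 in INV BM, the minus strand took 5.08% ± 0.295 (n = 4) against 0.540% ± 0.0805 (n = 3), with no overlap (exact permutation p = 0.0571, adjusted p = 0.0779). Counted as distinct junctions this was 21.1% against 0.810%, and as distinct positions and strands 36.4% against 3.85%. Without Ighv5-2 it made up 29.7%, 27.3%, 30.9% and 29.6% of VH junctions in INV BM and 0.427%, 0.548% and 0.624% in WT BM, with no overlap. The means were 29.4% ± 1.49 (n = 4) and 0.533% ± 0.0995 (n = 3) (exact permutation p = 0.0571, adjusted p = 0.0779), within run 1 29.7% against 0.427%, and within run 2 29.3% against 0.586%. Counted as distinct junctions it was 29.98% against 0.751%, and as distinct positions and strands 37.7% against 3.73%.

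The higher share came with low plus-strand joining in every part, and with higher minus-strand joining in only some. In part 8 minus-strand junctions were 0.267% ± 0.0427 (n = 4) against 0.0260% ± 0.0103 (n = 3) of D plus VH junctions, a ratio of 10.2, and in part 7 the ratio was 5.13. In parts 1 and 3 to 6 the groups overlapped, and in part 2 all INV BM libraries were lower (0.0112% ± 0.00539 against 0.0384% ± 0.0169).

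The minus-strand junctions of the groups also lay at different places. In WT BM 73.3%, 61.97% and 80.4% of them (without Ighv5-2) lay within 20 bases of the usual join of an annotated VH gene, where a minus-strand read starts at the RSS end of that gene and runs away from its coding end. In INV BM 8.57%, 10.3%, 8.86% and 10.6% did. The most used minus-strand sites of WT BM were of this kind. They lay 1 base from the plus-strand join of Ighv5-4, Ighv5-2, Ighv2-2 and Ighv2-9, with a further one at 116496342 outside annotated genes. Ighv2-2 minus had 23, 48 and 31 junctions in WT BM and 0 in INV BM, and Ighv5-4 minus had 4, 36 and 65 and 0. The means of both were at least 26.1 and 33.0 times lower in INV BM, against 3 counts per library. Without WT BM replicate 3 the bound for Ighv5-4 minus was 14.6. Ighv2-9 minus had 137 junctions in WT BM and 9 in INV BM. The site at 116496342 had 0, 79 and 24 junctions in WT BM and 2 in INV BM. These 4 sites were chosen for their use in WT BM and reached the minimum of 10 junctions through WT BM alone, so no test is given for them. Ighv5-2 minus took 0.0367% ± 0.0135 (n = 4) against 0.0237% ± 0.0196 (n = 3), with overlapping libraries (limma adjusted p = 0.23).

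Apart from that site of Ighv5-2, the most used minus-strand sites of INV BM lay outside annotated genes. Of 102 tested minus-strand sites outside annotated genes, 16 (against 7.11% of all sites) were called higher and 2 lower. In 87 of the 102, and in 13 of the 16 called higher, WT BM had no junction. A site entered by its total over both groups and INV BM held more D plus VH junctions, so these counts, and the direction of such sites, follow in part from the selection. Site 117193794 (chr12:117193769-117193802), 3.05 kb past the join of Ighv1-82, took 0.2002%, 0.149%, 0.171% and 0.133% of D plus VH junctions in INV BM and 0.00871%, 0.00301% and 0.00416% in WT BM. It rose by 4.89 on the log2 scale (SE 0.76, limma adjusted p = 5.4e-06), and its INV BM mean of 0.163% was above that of every annotated VH gene but Ighv5-2. Site 114835527 (chr12:114835496-114835530), 0.13 kb from the join of Ighv5-4, had 142, 94, 71 and 108 junctions in INV BM and 5, 0 and 0 in WT BM.

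Site 116843830 (chr12:116843813-116843833) had 276, 49, 60 and 98 junctions in INV BM and 0 in WT BM. Its mean was 0.0243% ± 0.0104 (n = 4), at least 14.3 times that of WT BM at 3 counts per library. Site 117150322 (chr12:117150311-117150323) had 154, 36, 59 and 115 and 0, at least 11.6 times higher. These and site 114835527 reached 10 junctions through INV BM alone and were chosen for their use there, so no test is given for them. All 4 sites lie in no annotated gene. Of all tested minus-strand VH sites, annotated genes included, 9 of 31 were called higher and 1 lower in part 8, and 3 of 14 higher and 1 lower in part 5. In part 1 the counts were 2 higher and 8 lower of 24, in part 4 they were 2 and 1 of 21, and in part 7 they were 1 and 1 of 23. Parts 2, 3 and 6 held 0 called higher, and 3 of 13, 1 of 15 and 0 of 14 called lower. Of all tested sites 7.11% were higher and 34.96% lower.

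**Figure D3:**
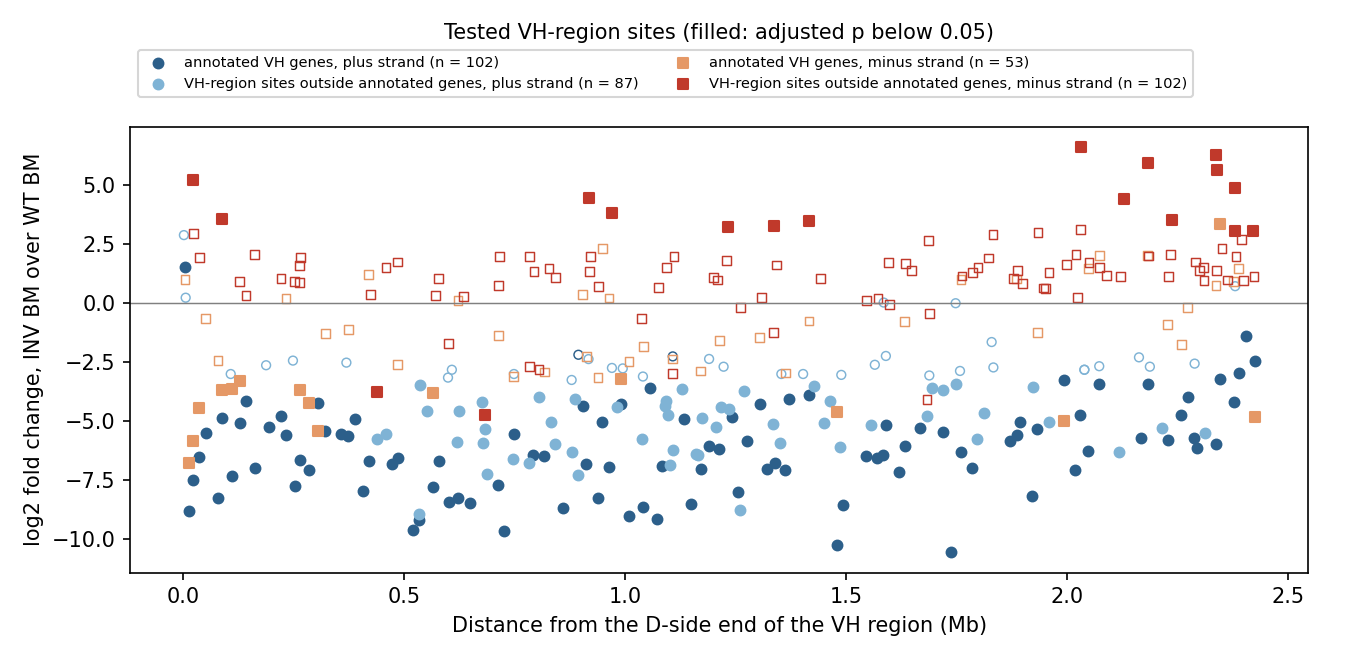
Log2 fold change of INV BM over WT BM from limma for each tested VH-region site against its distance in Mb from the D-side end of the region, with circles for plus-strand and squares for minus-strand sites; filled symbols passed an adjusted p below 0.05. Of 102 annotated genes on the plus strand 99 are filled below 0, and 16 of 102 minus-strand sites outside genes are filled above 0.

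Heptamer-like letters stood next to these sites in the orientation of their strand. In the window from 3 bases before the most used junction to a start 15 bases past it, CAC was found at 99 of the 102 minus-strand sites outside annotated genes (97.1%), and in 26.5% of them when read the other way. Windows of the same length every 1 kb of the VH region, in both orientations, held CAC in 21.6% of 4854. CACA was found at 84.3% of the sites and in 10.2% of windows, and CACAGTG at 18.6% and in 0.268%. These motifs overlap one another. Plus-strand sites of annotated VH genes held CACAGTG in 75.5% of 102. Of the minus-strand sites shown above, 117193794 and 117150322 hold CACAGTG whole, and 114835527 and 116843830 match it at 6 of 7 bases. The heptamer starts 7 bases past the most used junction at 117193794, and directly past it at the other minus-strand sites shown. A match is a description of the letters and does not show that RAG cut there.

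Past the last annotated VH gene INV BM libraries went on joining toward the end of the chromosome. Junctions there, per 100 D plus VH junctions, were 0.276, 0.2005, 0.197 and 0.209 in INV BM and 0.0143, 0.05004 and 0.0142 in WT BM. The means were 0.221 ± 0.0373 (n = 4) and 0.0261 ± 0.0207 (n = 3), a ratio of 8.43, with no overlap (exact permutation p = 0.0571, adjusted p = 0.0779). Within run 1 they were 0.276 and 0.0143, and within run 2 they averaged 0.202 and 0.0321. Without WT BM replicate 2 the WT BM mean was 0.0142, and with distinct junctions counted once the means were 1.80 and 0.0882.

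The WT BM junctions were few and near. In the first 10.0 kb WT BM had 135 plus-strand junctions, 127 of them at 117247870, and INV BM had 15. From 10.0 kb to 500 kb WT BM had 18, and farther out it had 0 on the plus strand and 1 on the minus strand. INV BM had 787 plus-strand junctions from 10.0 kb to 500 kb, 374 to 1000 kb, 2012 to 2000 kb, 474 to 3000 kb and 270 beyond that. The farthest plus-strand site with at least 10 junctions lay 3996 kb past the last VH gene. It had 13, 9, 0 and 0 junctions in INV BM replicates 1 to 4, of which 3 were distinct.

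Minus-strand junctions of INV BM were most frequent in the first stretch past the VH region. Within the first 10.0 kb 156 of its junctions were minus-strand and 15 plus-strand. The minus-strand ones were 104, 18, 6 and 28 in replicates 1 to 4, so most were of replicate 1. From 10.0 kb to 500 kb 24 were minus-strand and 787 plus-strand. Of the 5 minus-strand sites with at least 10 junctions, 4 lay up to 6.86 kb past Ighv1-85, and the other lay 145.7 kb past it, with 5, 0, 0 and 12 junctions in INV BM. The nearest plus-strand site with no WT BM junction lay 11.1 kb past it. At 117240170, 1.498 kb past the gene, the minus strand had 72, 2, 3 and 3 junctions in INV BM and 0 in WT BM, so most were of replicate 1. The labels give no inversion ends to set beside these positions.

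The leading site beyond VH, at 118596803 (chr12:118596800-118596838), lay 1358 kb past Ighv1-85 in no annotated gene, with Ptprn2 nearest. It had 596, 169, 216 and 274 junctions in INV BM and 0 in WT BM. Its mean, 0.0686% ± 0.0162 (n = 4) of D plus VH junctions, was at least 40.4 times that of WT BM at 3 counts per library, and was above that of every annotated VH gene of INV BM but Ighv5-2 and Ighv1-81. It and the other sites named beyond VH were chosen after their values were seen, and sites beyond VH were not part of the limma fit. Of 82 plus-strand sites there with at least 10 junctions, 16 had a junction in all 4 INV BM libraries. Most of the 82 reached 10 junctions through INV BM, so that 3 had one in any WT BM library follows in part from the selection. All 82 held CAC in the window described above, against 23.7% of 8036 windows every 1 kb of this stretch, and 30.5% held it read the other way.

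**Figure D4:**
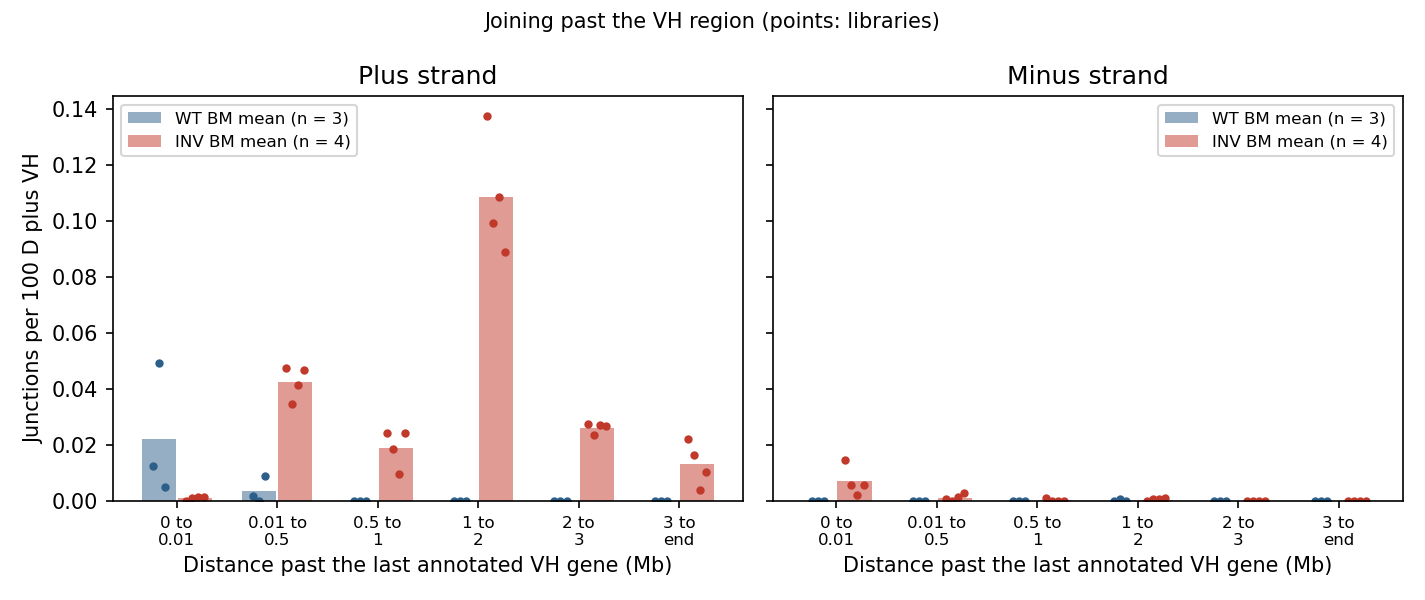
Junctions per 100 D plus VH junctions by distance in Mb past the last annotated VH gene, for the plus strand (left) and the minus strand (right); bars are means of 3 WT BM or 4 INV BM libraries and points are libraries. INV BM lies above WT BM on the plus strand in each window but the nearest, where WT BM had 135 junctions and INV BM 15.

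Counted over all junctions, intergenic joining between D and VH overlapped between the groups. It was 0.322, 0.252, 0.235 and 0.219 junctions per 100 D plus VH junctions in INV BM and 0.187, 0.237 and 0.253 in WT BM, with means of 0.257 ± 0.0456 (n = 4) and 0.226 ± 0.0343 (n = 3) (exact permutation p = 0.514, adjusted p = 0.593). Within run 1 it was 0.322 against 0.187, and within run 2 it averaged 0.235 against 0.245. With distinct junctions counted once it was 1.002 against 0.266 (exact permutation p = 0.0571, the smallest possible). Nearly all of it lay at 1 plus-strand site (chr12:114811137-114811180), 5.58 kb on the D side of Ighv5-2, outside annotated genes. Whether it is a VH segment that the annotation does not name was not settled here, so what counts as intergenic rests on the annotation. Of the intergenic junctions, 4646 in INV BM and 1401 in WT BM were at this site. This site took 0.2500% ± 0.0431 (n = 4) against 0.225% ± 0.0349 (n = 3) (log2 fold change 0.25, SE 0.26, limma adjusted p = 0.47). With distinct junctions counted once its log2 fold change was 1.93 (limma adjusted p = 3.9e-07). Its sequence holds CACAGTG and, after 23 bases, a nonamer that matches ACAAAAACC at 8 of 9 bases. None of the 5 intergenic sites tested was called by limma at an adjusted p below 0.05. Of the 4 on the plus strand, 3 had no WT BM junction and entered through INV BM alone. Their not being called therefore decides nothing. The minus-strand site at 114811137 lay 1 base from the main site. It had 12, 20, 1 and 3 junctions in INV BM and 0, 1 and 0 in WT BM. The plus-strand site at 114768101 had 17 and 0. Both sites reached the minimum junction count through INV BM alone and were chosen for their use, so no test is given for them. A plus-strand site at 114770308 had 2 and 5 and was not tested.

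D segments took a larger share of D plus VH junctions in INV BM, as they must where the VH share is low. Of 19 D segments tested on the plus strand 9 rose and none fell on this denominator (limma), where 7.11% of all tested sites rose and 34.96% fell. Ighd1-1, the most used D, took 41.4%, 39.2%, 38.9% and 39.6% of D plus VH junctions in INV BM and 23.6%, 21.9% and 22.6% in WT BM, and rose by 0.77 on the log2 scale (SE 0.02, limma adjusted p = 2.7e-18). Ighd2-4, Ighd2-3 and Ighd2-8 rose by 1.07, 0.91 and 0.77 (limma adjusted p = 1.1e-14, 4.1e-11 and 2.2e-06). Ighd4-1, the D segment next to JH (DQ52), had a log2 fold change of 0.60 (SE 0.28) and was not called (limma adjusted p = 0.089). Without INV BM replicate 1 its log2 fold change was 1.03 (limma adjusted p = 1.8e-12), and with the run as a block it was called at 0.60 (limma adjusted p = 0.0057).

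Among D junctions alone, the shares of Ighd1-1 and Ighd4-1 overlapped between groups. Ighd1-1 took 47.7%, 43.1%, 42.7% and 43.5% of D junctions in INV BM and 45.5%, 44.1% and 46.2% in WT BM (exact permutation p = 0.571, adjusted p = 0.612). With distinct junctions counted once it averaged 18.2% against 22.1% (exact permutation p = 0.0571, the smallest possible). Ighd4-1 took 5.22%, 9.02%, 9.15% and 9.21% against 8.54%, 7.07% and 7.51% (exact permutation p = 0.743, adjusted p = 0.743). Within run 1 Ighd4-1 was 5.22% in INV BM against 8.54% in WT BM and within run 2 it averaged 9.13% against 7.29%, so its direction differed between runs, and so did that of Ighd1-1 (47.7% against 45.5%, and 43.1% against 45.2%).

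With D junctions as the library size, 2 of 19 D segments rose and 3 fell by limma, where 14 of all 492 sites rose and 220 fell. Of these segments, all but Ighd2-4 are named after their values were seen. Ighd2-4 rose from 12.3% ± 0.549 (n = 3) to 14.5% ± 0.476 (n = 4) of D junctions (log2 fold change 0.27, limma adjusted p = 0.001). Ighd3-1, at the VH end of the D region, was at 0.0379% ± 0.00503 in INV BM and 0.0173%, 0% and 0% in WT BM (log2 fold change 3.81, SE 1.04, limma adjusted p = 0.0039). Ighd6-1 fell from 1.23% ± 0.319 to 0.5996% ± 0.0610 (log2 fold change −0.85, limma adjusted p = 0.0011). Ighd5-6 and Ighd5-7 fell by 1.06 and 1.18 on the log2 scale (limma adjusted p = 0.037 and 0.048). Several members of the Ighd2 and Ighd5 families share much of their sequence, so the split between them rests on the authors' alignment.

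**Figure D5:**
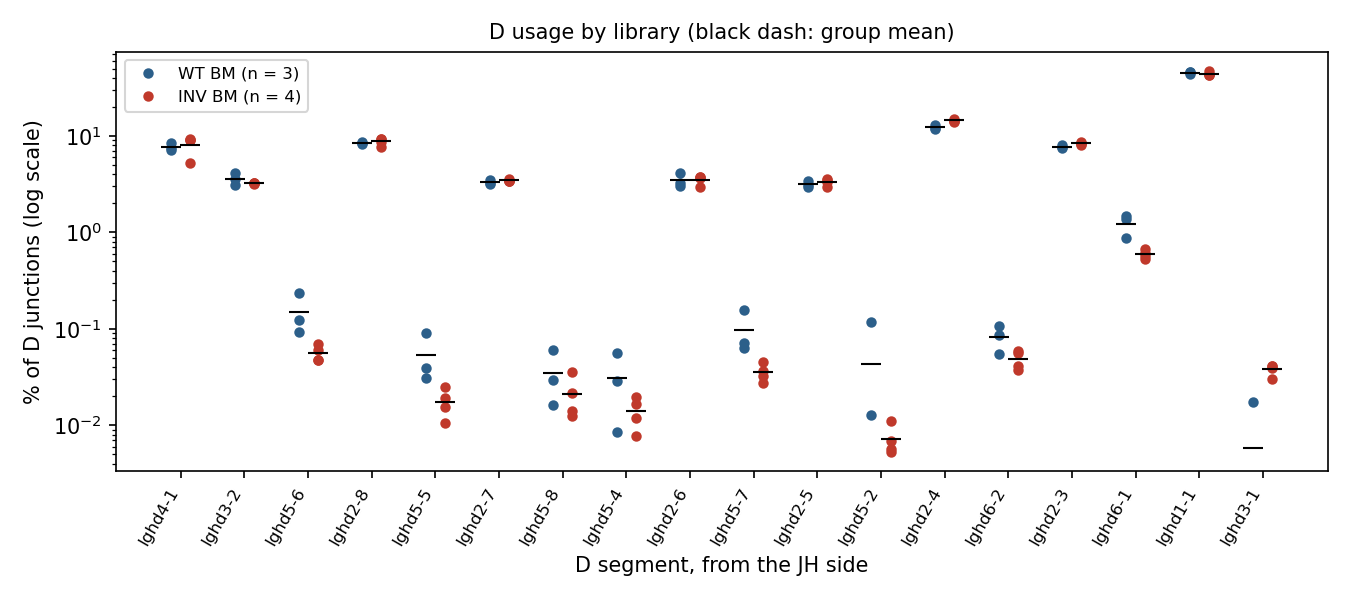
Percent of D junctions, on a log axis, at each D segment with a group mean above 0.02%, ordered from the JH side; points are libraries (3 WT BM, 4 INV BM), libraries without a junction have no point, and dashes are group means. Ighd1-1 is the most used in every library, and Ighd3-1 has no junction in 2 of the 3 WT BM libraries.

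Minus-strand joining in the D region was rare in both groups. It was 0.0743%, 0.107%, 0.122% and 0.103% of D junctions in INV BM and 0.137%, 0.126% and 0.223% in WT BM, lower in every INV BM library (exact permutation p = 0.0571). Within run 1 it was 0.0743% against 0.137%, and within run 2 it averaged 0.111% against 0.175%. The order turned when each distinct junction was counted once, with 0.727% in INV BM and 0.438% in WT BM.

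Insert lengths are given by class of joint. Between bait and prey the median insert was 3 bases in plus-strand D joints of all 7 libraries. It was 17 to 18 bases in plus-strand VH joints, where the insert can hold a D segment. In minus-strand VH joints it was 16 to 18 bases in INV BM and 18, 22 and 19 in WT BM. In plus-strand joints beyond VH it was 17 to 18 in INV BM and 17.5, 14 and 17 in WT BM, and at the main intergenic site 16 to 17 and 15. In the few minus-strand D joints it was 5, 2, 3 and 3 in INV BM and 1, −1.5 and 2 in WT BM, where a negative value is an overlap of the bait and prey alignments. VH joints with at least 1 inserted base made up 99.4% ± 0.0460 (n = 4) against 99.6% ± 0.0615 (n = 3) (exact permutation p = 0.0571). Within run 1 these were 99.4% and 99.7%, and within run 2 99.4% and 99.6%.

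An exact match of at least 8 bases to an annotated D segment was found in most inserts, a search chosen after the data were seen. It was found in 68.9% ± 2.88 (n = 4) of the minus-strand VH joints of INV BM without Ighv5-2, in 70.1% ± 1.27 of its plus-strand ones and in 72.4% ± 2.27 of its joints beyond VH. Among joints with a match in INV BM, the Ighd1 family took 46.5% ± 3.14, 45.0% ± 1.56 and 45.3% ± 1.27 in these 3 classes, and Ighd2 took 45.8% ± 2.67, 43.5% ± 1.01 and 45.01% ± 2.67. In WT BM plus-strand VH joints without Ighv5-2 the families took 47.7% ± 1.81 and 40.4% ± 1.35 (n = 3). A D match read in reverse was found alone in 0.396% ± 0.189 of the matched plus-strand joints of INV BM and in 0.577% ± 0.143 of those of WT BM.

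The JH segment at the bait end differed in share. Ighj1, the JH segment nearest the D region, carried 16.9%, 19.7%, 21.6% and 20.6% of D junctions in INV BM and 21.9%, 26.03% and 29.7% in WT BM (exact permutation p = 0.0571). It carried 11.6%, 13.7%, 15.2% and 15.4% of VH junctions in INV BM and 19.8%, 22.7% and 26.2% in WT BM (exact permutation p = 0.0571), and all INV BM libraries were lower in both. Within run 1 the D values were 16.9% and 21.9% and the VH values 11.6% and 19.8%. Within run 2 they averaged 20.6% and 27.9%, and 14.8% and 24.4%. Counted as distinct junctions the D values were 15.9% and 15.99% and the VH values 14.8% and 17.4%. Ighj4 was higher among D junctions, at 20.1% ± 2.59 (n = 4) in INV BM against 14.4% ± 0.957 (n = 3) in WT BM, without overlap. Among VH junctions it overlapped (20.5% ± 3.70 against 17.6% ± 0.938). Ighj2 and Ighj3 overlapped in both, and these 3 segments were not tested. The share of distinct junctions also differed between the groups, at 2.18% to 4.57% in INV BM and 5.68% to 8.30% in WT BM. The part of repeats beyond this count was not tested.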

How the data were processed

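Junction lists of 4 INV BM and 3 WT BM LAM-HTGTS libraries were read. The authors' deposited lists give position, strand, alignment ends and read sequence of each junction, with no normalization, and all counts were made here by counting lines. Alignment was to mm9 and Bowtie2 was used, per the submitters' processing notes. Filter settings are not given in the sources used here, and the lists carry no molecular identifiers.

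Regions came from the mm9 gene annotation (GENCODE vM1), with symbols from RefSeq names: 112 VH genes (chr12:114812453-117238672), 21 D segments (chr12:114668739-114766265) and 4 JH segments; 1 D segment kept its clone name. The bait JH was the one nearest the bait end. Coordinates are mm9, and sequences were read from that genome.

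For shares, exact permutation tests (two-sided) were run (scipy 1.17.1) with Benjamini-Hochberg adjustment. Site counts were fitted with limma 3.58.1 (voom, lmFit, eBayes, added count 0.5; R 4.3.3), with D plus VH junctions as the library size, on the 7 libraries without covariates. The fit was tested on simulated data. Where a group had 0 junctions, folds are bounds set with 3 counts in each of its libraries. With each line taken as a separate count, all replicate pairs differed over D segments (chi-square, largest p = 2.1e-17), and none was merged. Lines that share their ends may be copies, so this p can overstate the difference.

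Replicate numbers 1 to 3 occur in both groups, but same-numbered libraries did not deviate together (r −0.106, −0.065 and −0.041 over 492 sites), so they were not treated as pairs.

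Named sites were Ighv5-2, the 3 first and 3 last VH genes with a junction, D segments with at least 5% of D junctions, the 5 most used VH genes of each group, the 4 VH genes with the largest changes in each direction among called ones without overlap, the 5 most used minus-strand VH-region sites and 3 intergenic sites of each group. Members and lists were chosen with earlier results of these data known. WT BM replicate 4, pooled lists, off-target lists and other groups were not used here.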

Additional observations from a re-analysis of the deposited data

Results flagged for a closer look

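Among the 4 INV BM libraries, 57 groups of values were checked for 1 library far from the other 3 (Dixon's criterion at the 95% level), and 13 were beyond it, where chance gives about 1 in 20. Many of these groups share counts, as the Ighv5-2 share and its plus-strand share do, so the 13 are not independent and the excess over 1 in 20 was not tested. WT BM, with 3 libraries, was not checked. INV BM replicate 1, the only INV BM library of run 1, accounted for 8 of them: a VH share of 13.1% (9.001% to 9.09% in the others), an Ighv5-2 share of 11.2% (7.53% to 7.55%) and 11.1% on the plus strand alone, 0.276 junctions beyond VH per 100 D plus VH junctions (0.197 to 0.209), an Ighd4-1 share of D junctions of 5.22% (9.02% to 9.21%) and of D plus VH junctions of 4.54%, an Ighd1-1 share of D junctions of 47.7%, and 0.0478% at Ighv1-84.

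INV BM replicate 2 accounted for a minus-strand share of intergenic junctions of 2.53% (0.159% to 0.529% in the others), 0.0115% of D plus VH junctions at the minus-strand site 117150322, 0.0236% at Ighv1-85 and 0.00351% at Ighv5-4. INV BM replicate 3 had 0.00484% at Ighv1-49, from 13 junctions.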

How the results depend on the processing

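Of the 15 shares, 10 kept their direction under every alternative run. Their sizes moved with the counting of lines that share their ends. One of them, the Ighj1 share of D junctions, differed by only −0.0643 percentage points with distinct junctions. For the Ighv5-2 share, D junctions were not among the alternative denominators, and per D junction its groups overlapped. The share of VH junctions other than Ighv5-2 was 1.60% against 46.2% over all junctions. It was 5.49% against 57.8% with distinct junctions and insert lengths, and 44.4% against 71.9% with distinct positions and strands. Those that turned were the minus-strand share of D junctions (difference INV BM minus WT BM 0.289 percentage points with distinct junctions, 0.0308 with distinct junctions and insert lengths, 3.01 with distinct positions and strands), the minus-strand share of intergenic junctions (−0.133 with distinct junctions and insert lengths), the Ighd4-1 share of D junctions (−3.32 within run 1, −1.896 with distinct positions and strands), the Ighd1-1 share (2.16 within run 1) and intergenic joining (−0.00992 within run 2, −0.166 per 100 D junctions). Counts with insert lengths, with positions alone, and the site fit within run 2 were added after seeing the data. The VH share of all junctions differed by −13.3 percentage points with overlapping groups (exact permutation p = 0.286): it was 8.40% to 11.7% in INV BM and 45.5%, 16.4% and 6.04% in WT BM, whose replicates 2 and 3 are mostly JH junctions.

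Sites called higher numbered 73 on all junctions, 14 on D junctions and 176 on VH junctions, 91 with distinct junctions, 61 with insert lengths added, 23 within run 2, and 23 to 33 when 1 library was left out, the 23 without WT BM replicate 1. With a replicate block, 196 sites were called and the VH share differed by −39.5 percentage points. Among named sites with at least 10 junctions in each group, the block also called Ighd4-1. With D junctions as the library size the log2 fold changes of Ighd1-1, Ighd2-8, Ighd4-1 and the intergenic site 114811138 became −0.0388, −0.0425, −0.21 and −0.58, and the last was −0.10 within run 2. Ighv1-84 became 0.0258 on all junctions and 0.86 on VH junctions. The causes of these changes were not tested, and those of scaling follow from the denominator. Limits: most lines share position, strand and bait end with another line, and copies were not told from separate joints. Also, 4 against 3 libraries cannot reach an exact p of 0.05, and 1 run holds a single library of each group.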

Other observations

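Joints to Ighv5-2 held another mix of D families than joints to the other VH genes, in all 7 libraries. Among plus-strand joints with a match of at least 8 bases to a D segment, Ighd1 took 26.8% ± 0.639 (SD, n = 4) at Ighv5-2 and 45.0% ± 1.56 at the other VH genes in INV BM, and 25.3% ± 5.52 (n = 3) and 47.7% ± 1.81 in WT BM. Ighd2 took 59.6% ± 0.528 and 43.5% ± 1.01 in INV BM, and 58.2% ± 4.36 and 40.4% ± 1.35 in WT BM. The difference was noticed in these data and was not tested.

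Intergenic joints held Ighd1 in 20.4% ± 6.31 of matched inserts in INV BM and in 8.42% ± 2.495 in WT BM, where every INV BM library lay above the WT BM ones by a small margin at replicate 1 (10.99% against at most 10.9%).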
